A study of Macaca mulatta with 24 samples.

Results

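Cyclic nucleotide phosphodiesterases were followed in the core of the nucleus accumbens (NAcc), a ventral striatal region of the reward circuit, of rhesus macaques that drank ethanol for a long period or drank none. The genes were PDE1A, PDE1B, PDE2A, PDE4A, PDE4B, PDE4D, PDE7A, PDE7B, PDE8B and PDE10A. They were taken from the deposited expression table by gene symbol, and all 10 were found among its 17208 gene rows. All 10 had a mean of at least 1 TPM (transcripts scaled for length and to a fixed total per sample) over the animals, the level the study itself asked of a gene, as did 13637 genes in all.

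Phosphodiesterases open the phosphate ring of cAMP and cGMP and so end the signals that adenylyl and guanylyl cyclases start. In the striatum, dopamine D1 receptors raise and D2 receptors lower cAMP in separate populations of projection neurons, and phosphodiesterases set how high and how long cAMP and cGMP stay up there. PDE10A and PDE1B are well known for their high expression in striatal projection neurons, and the PDE4 enzymes are the targets of rolipram.

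The study compared adult, male, unrelated rhesus macaques of 4 cohorts (4, 5, 7a and 7b), each measured once by RNA-Seq of a small dissection of the NAcc core. The 8 controls went through the same schedule-induced polydipsia and operant sessions as the drinkers, with water on both spouts, and were given a maltose dextrin solution to match calories. The 8 LD* animals, labelled LD in the public record and described by the study as low and binge drinkers, drank 1.58 ± 0.526 g/kg of ethanol a day (SD, range 0.47 to 2.07). The 8 HD* animals were 4 heavy drinkers (HD, 2.92 ± 0.163 g/kg, range 2.74 to 3.09) and 4 very heavy drinkers (VHD, 3.37 ± 0.293 g/kg, range 3.09 to 3.78). The amount drunk was self-chosen, so the drinking categories LD*, HD and VHD were not assigned at random. Controls had no ethanol by design, and how animals were chosen as controls is not given here. Tissue was taken without a period of abstinence. Cohorts were not spread evenly over the groups. Cohort 4 held 2 LD* animals alone and cohort 5 held 3 controls, 2 HD and 2 VHD animals. Cohort 7a held 2 controls, 3 LD*, 2 HD and 2 VHD animals, and cohort 7b held 3 animals each of controls and LD*.

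The values were TPM, a level per transcript length given as a share of all transcripts of the sample, so they carry no read depth. In whole tissue, fewer cells of a type and less RNA per cell cannot be told apart. Markers of striatal projection neurons were present in all 24 animals, and none of the 15 in the table was at 0 in any of them, but their summed level ran from 916 to 13742 TPM. The lowest sum was that of Control replicate 6, a cohort 7b animal. It had the lowest level of the 24 animals for all 15 striatal markers and the highest for 11 of 12 oligodendrocyte markers, and the next lowest striatal sum was 3161 TPM. Differences from the controls are therefore also given without this animal. Astrocyte markers summed to between 3362 and 12398 TPM, microglial markers to between 343 and 945 TPM and endothelial and mural markers to between 89.4 and 176 TPM. Markers of cortical excitatory neurons ran from 1.42 to 872 TPM, with 2 of the 5 at 0 in at least 1 animal.

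Over the 24 animals, PDE1B and PDE2A stood far above the rest. PDE1B, a phosphodiesterase of both nucleotides that calcium and calmodulin activate, averaged 475 ± 250.3 TPM (SD, n = 24). PDE2A, which hydrolyzes both nucleotides and is stimulated by cGMP, averaged 357 ± 68.1 TPM. These levels per length did not separate, since PDE1B was the higher of the pair in 13 of 24 animals. Together the pair made up 73.1% of the summed level of the 10 genes, which averaged 1120 ± 366 TPM.

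A middle tier followed. PDE7B, which is specific for cAMP, averaged 66.9 ± 35.3 TPM, the cAMP-specific PDE4B 62.0 ± 12.6 TPM, and PDE10A, which acts on both nucleotides, 60.9 ± 42.0 TPM. PDE2A was above PDE7B in 24 of 24 animals, whereas PDE7B was above PDE4B in 13 and PDE4B above PDE10A in 15, so the order within this tier was not stable from animal to animal. PDE4A averaged 40.2 ± 7.65 TPM and was below PDE10A in 17 animals. PDE8B, a cAMP-specific enzyme with high affinity, averaged 29.2 ± 11.2 TPM and was below PDE4A in 20 animals. PDE1A, a close relative of PDE1B, averaged 22.0 ± 14.3 TPM and was below PDE8B in 21. PDE4D and PDE7A, both specific for cAMP, were lowest at 3.53 ± 1.23 and 3.28 ± 0.636 TPM, and PDE4D was the higher of them in 14 animals.

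The genes also differed in how much they varied from animal to animal. The coefficient of variation over the 24 animals was 68.9% for PDE10A, 64.9% for PDE1A and 52.7% for both PDE7B and PDE1B. For PDE8B and PDE4D it was 38.5% and 34.8%. It was between 19.0% and 20.3% for PDE4B, PDE7A, PDE2A and PDE4A. That of PDE2A fell to 10.9% without Control replicate 6.

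**Figure D1:**
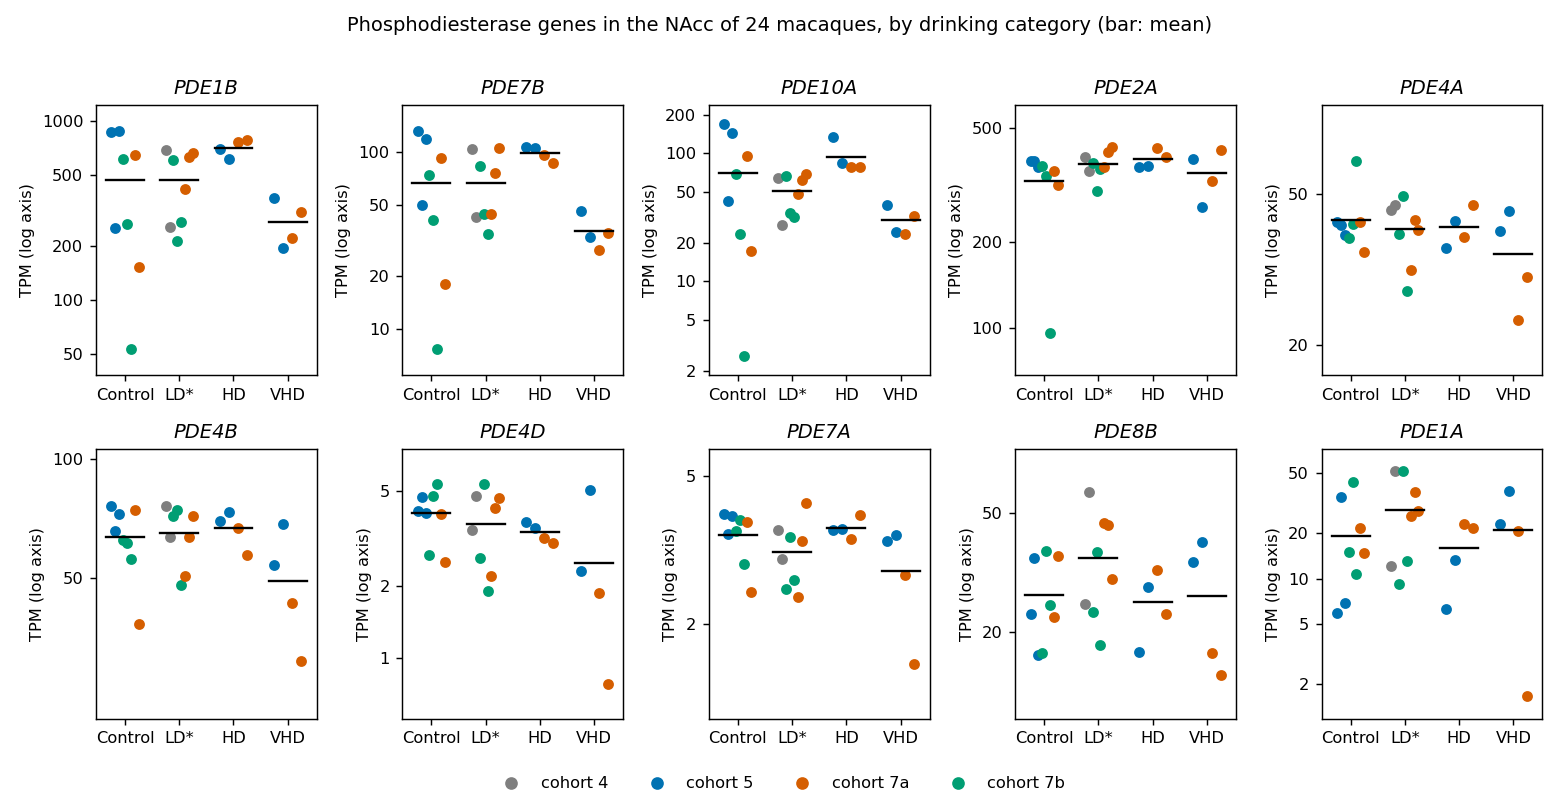
Each panel plots 1 gene in TPM on a log axis against drinking category, with a point per animal coloured by cohort and a bar at the mean of the category (8 controls, 8 LD*, 4 HD, 4 VHD). For PDE1B, PDE7B and PDE10A the 4 VHD animals lie below the 4 HD animals while the controls span both, and for the other genes HD and VHD overlap.

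The other phosphodiesterase genes of the family in the table were mostly at low levels. The highest was PDE6D, the prenyl-binding subunit named after the photoreceptor enzyme, which averaged 108 ± 7.00 TPM, above all members but PDE1B and PDE2A. The cGMP-specific PDE9A averaged 27.1 ± 4.68 TPM, PDE8A 17.9 ± 7.33 TPM and PDE6H 10.4 ± 8.67 TPM. Below 10 TPM came PDE6B (7.89), PDE1C (6.81), PDE11A (4.49), PDE5A (2.25), PDE3A (1.59), PDE3B (1.24) and PDE4C (1.07). PDE6A (0.197), PDE6C (0.169) and PDE6G (0.0529) did not reach a mean of 1 TPM. The 10 members made up 84.3% of the summed level of all these genes on average.

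The first comparison asked whether long-term heavy drinking went with a changed level of these genes. No member passed the test between HD* animals and controls. In limma's moderated test over the 13637 genes, 0 genes reached an adjusted p of 0.05 (percent called 0), with 775 genes at an unadjusted p under 0.05 (5.68%). Of the 10 members, 0 passed at either level, and the smallest adjusted p of any gene was 0.706. The median difference of the members, -0.08 on the log2(TPM + 1) scale, lay beside -0.12 for all genes tested. The study itself reported many genes in this contrast at an FDR under 0.05, with DESeq2 on read counts. The 0 given here is that of limma on TPM, so both the model and the input differ from the study's.

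PDE10A, PDE1B and PDE7B varied widely among the controls themselves. PDE10A ran from 2.59 through a median of 55.8 to 170.1 TPM in controls, from 27.6 through 54.8 to 68.5 TPM in LD* animals and from 23.6 through 58.9 to 134 TPM in HD* animals. Controls thus held both the highest and the lowest level, and the groups overlapped throughout. The difference of HD* from controls was 0.30 (SE 0.57, 95% confidence interval -0.87 to 1.47) on the log2 scale, and without Control replicate 6 it was -0.21. PDE1B behaved likewise, with 53.2, 439 and 874 TPM as the lowest, median and highest control, 212, 512 and 686 TPM in LD* and 195, 489 and 777 TPM in HD* animals. Its difference was 0.36 (SE 0.47, interval -0.61 to 1.33), and -0.02 without that control. PDE7B ran from 7.64 through 62.2 to 132 TPM in controls, from 34.5 through 60.1 to 105 TPM in LD* and from 27.8 through 66.4 to 106 TPM in HD* animals. Its difference was 0.25 (SE 0.46), and -0.11 without the control. For these 3 genes the sign of the difference from controls therefore rested on 1 animal, and it also turned when cohort was added as a covariate. The intervals still allowed changes of more than 1 log2 unit.

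PDE2A and the PDE4 genes varied less between animals and gave narrower intervals. PDE2A was 360 TPM in the median control, 372 TPM in the median LD* animal and 379 TPM in the median HD* animal, and every animal except Control replicate 6 was between 265 and 430.4 TPM. The HD* difference of 0.27 (SE 0.20, interval -0.15 to 0.68) shrank to 0.03 without that control. PDE4D gave the smallest p of the members. It was at 2.53, 4.09 and 5.35 TPM (lowest, median, highest) in controls, 1.91, 3.83 and 5.31 TPM in LD* and 0.784, 3.11 and 5.04 TPM in HD* animals. The HD* difference was -0.41 (SE 0.21, interval -0.84 to 0.02, adjusted p 0.706 in limma), and the groups overlapped. PDE4A differed by -0.18 (SE 0.14), PDE4B by -0.15 (SE 0.16) and PDE7A by -0.11 (SE 0.13). PDE1A and PDE8B differed by -0.12 (SE 0.48) and -0.06 (SE 0.24). Without Control replicate 6 the difference was -0.35 for PDE4D, -0.11 for PDE4A, -0.17 for PDE4B, -0.13 for PDE7A, -0.19 for PDE1A and -0.07 for PDE8B.

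No member passed between LD* animals and the same 8 controls. For LD* against controls 0 of 13637 genes passed in limma (percent called 0; 387 genes, 2.84%, at an unadjusted p under 0.05), with 0 of 10 members at either level. The differences ran from -0.14 for PDE4D to 0.59 (SE 0.48) for PDE1A, and 7 of 10 were above 0, where 58.1% of all genes were below 0. Without Control replicate 6 only 4 of 10 were above 0, since PDE1B (-0.04), PDE7B (-0.04) and PDE10A (-0.33) turned, while PDE1A was at 0.52 and PDE8B at 0.36. For PDE8B the difference was 0.37 (SE 0.24), and for PDE1A and PDE8B alike the LD* mean was the highest of the 3 groups, at 28.5 ± 16.9 and 35.3 ± 13.8 TPM. HD* against LD* gave 0 genes (percent called 0; 147 genes, 1.08%, at an unadjusted p under 0.05) and 0 members. PDE8B had the smallest unadjusted p there, with a difference of -0.43 (SE 0.24, adjusted p 0.937 in limma). Since HD* and LD* animals were set against 1 group of controls, the comparisons are not independent.

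Ethanol intake in g/kg a day was next set against the level of each gene within the 16 drinkers, with LD* and HD* each at its own mean. The slope was below 0 for all 10 members, as it was for 67.5% of all genes, and 0 of 10 passed (percent called 0 of 13637, with 1107 genes, 8.12%, at an unadjusted p under 0.05). It was steepest for PDE7B at -0.46 log2 units per g/kg (SE 0.39, adjusted p 0.578 in limma), then for PDE4D at -0.36 (SE 0.27), PDE10A at -0.31 (SE 0.41) and PDE1B at -0.29 (SE 0.41). It was -0.25 (SE 0.20) for PDE4B and -0.01 (SE 0.13) for PDE2A. LD replicate 2, the animal with the lowest intake (0.47 g/kg), weighed heavily on the slopes. Without it they were -1.48 for PDE7B (unadjusted p 0.00531), -1.42 for PDE10A (0.00921) and -1.34 for PDE1B (0.0170), each with an adjusted p of 0.294 in limma, so these too did not pass, and the slopes of PDE1A and PDE8B turned to 0.83 and 0.45. Small p-values were also more common without this animal, with 2263 of 13637 genes at an unadjusted p under 0.05 in limma, against 1107 with it.

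Cohort was tested as a source of difference in its own right. Cohort terms, added to the 3 groups, gave 0 called genes (percent called 0, with 1140 genes, 8.36%, at an unadjusted p under 0.05) and 0 members, with the smallest p for PDE4B (F 2.52, p 0.0842, adjusted p 0.540) and PDE10A (F 2.50, p 0.0858, adjusted p 0.540) in limma. Without Control replicate 6, F was 2.36 for PDE4B and 1.303 for PDE10A, and 0 genes passed. A dependence of the HD* difference on cohort (5 against 7a), tested as limma's interaction, passed for 0 members (percent called 0, with 294 genes, 2.16%, at an unadjusted p under 0.05). The interaction was widest for PDE1A, at -1.01 (SE 1.21), and for PDE10A, at 0.99 (SE 1.07).

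The clearest pattern lay inside the HD* group. PDE1B, PDE7B and PDE10A were lower in all 4 VHD animals than in all 4 HD animals. PDE10A, which hydrolyzes both nucleotides and is concentrated in striatal projection neurons, was at 134, 84.1, 78.2 and 78.7 TPM in HD replicates 1 to 4 and at 39.6, 24.3, 23.6 and 32.3 TPM in VHD replicates 1 to 4. The groups did not overlap, and the mean was 3.13-fold higher in HD (93.7 against 29.9 TPM). The difference was -1.61 on the log2(TPM + 1) scale (SE 0.21, interval -2.07 to -1.14, adjusted p 0.00363 in limma).

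PDE7B, specific for cAMP, was at 106, 106, 96.0 and 86.4 TPM in the HD animals and at 46.4, 33.1, 27.8 and 34.97 TPM in the VHD animals. The groups did not overlap, and the HD mean was 2.77-fold the VHD mean. The log2 difference of -1.46 (SE 0.17, adjusted p 0.00363 in limma) had the third smallest p of the 13637 genes. PDE1B, activated by calcium and calmodulin, was at 695, 609, 757 and 777 TPM in HD and at 369, 195, 220.5 and 309 TPM in VHD animals. Again there was no overlap, with a 2.60-fold ratio of means and a log2 difference of -1.41 (SE 0.19, adjusted p 0.00363 in limma).

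These 3 calls have to be read against a wide background. In this comparison 1997 of 13637 genes passed an adjusted p of 0.05 (percent called 14.6), 77.9% of them lower in VHD animals (54.5% after rescaling the samples by trimmed means), and 2445 genes had all VHD animals below all HD animals (17.9%). At the threshold of 0.001 that the study set for this contrast, 0 genes passed in limma (percent called 0, with 4457 genes at an unadjusted p under 0.05, 32.7%). The study reported many genes past that threshold in its own secondary analysis, which was not repeated here. The exact two-sided permutation p for each of the 3 genes was 0.0286, the smallest that 4 against 4 animals can give. The differences were of like size in both cohorts. In cohort 5 (2 HD, 2 VHD) the log2 differences were -1.74 for PDE10A, -1.41 for PDE7B and -1.28 for PDE1B, and in cohort 7a (2 HD, 2 VHD) they were -1.47, -1.52 and -1.55. Leaving out any 1 of the 8 animals kept all 3 calls, with the largest adjusted p at 0.0204. Set against the other groups, the HD and VHD values of these 3 genes all lay within the range of the controls.

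The remaining members did not separate HD from VHD animals. PDE4B, specific for cAMP, was at 69.5, 73.2, 66.7 and 57.2 TPM in HD and at 53.8, 68.4, 43.1 and 30.6 TPM in VHD animals. The groups overlapped, and the difference of -0.49 (SE 0.21, unadjusted p 0.0413) did not pass adjustment (adjusted p 0.136 in limma). PDE4D differed by -0.45 (SE 0.31, adjusted p 0.334 in limma). Without VHD replicate 2, PDE4B (-0.67, adjusted p 0.0179) and PDE4D (-0.76, adjusted p 0.0234) passed in limma, as did 34.1% of all genes. PDE4A differed by -0.27 (SE 0.20) and PDE7A by -0.32 (SE 0.22). Within cohorts 5 and 7a the differences were -0.23 and -0.75 for PDE4B and -0.057 and -0.59 for PDE7A. Neither gene overlapped within a cohort of 2 HD and 2 VHD animals, while PDE2A, PDE4A and PDE4D overlapped in cohort 5. After rescaling by trimmed means PDE7A overlapped in cohort 5, at 3.49 and 3.51 in HD and 3.59 and 3.07 in VHD animals. The share of all genes without overlap at 2 against 2 animals was not counted, so lack of overlap here sets neither gene apart.

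PDE2A, the other abundant member, was at 366, 369, 428 and 398 TPM in HD and at 389, 265, 326 and 418 TPM in VHD animals. The groups overlapped, with a difference of -0.18 (SE 0.15, interval -0.51 to 0.16). PDE1A was at 6.34, 13.2, 22.8 and 21.5 TPM in HD and at 23.1, 37.9, 20.5 and 1.67 TPM in VHD animals, a difference of -0.01 (SE 0.68). PDE8B differed by -0.02 (SE 0.31). The differences of all 10 members were below 0, as were 65.2% of all genes, and their median of -0.39 lay beside -0.17 for all genes. Rescaling the samples by trimmed means moved the median of all genes to 0.0049, and PDE1A, PDE2A and PDE8B then had differences above 0.

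**Figure D2:**
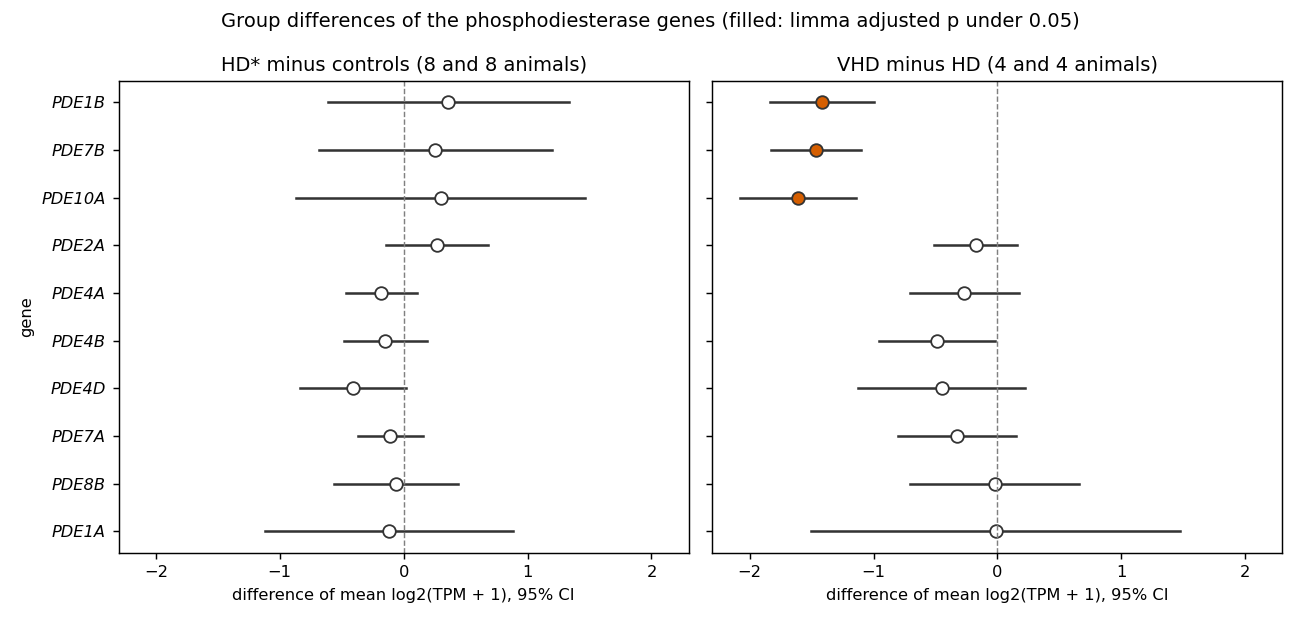
Points give the difference of mean log2(TPM + 1) and lines its 95% confidence interval for the 10 genes, HD* minus controls on the left and VHD minus HD on the right, with filled points for an adjusted p under 0.05 in limma. No point is filled on the left, and PDE1B, PDE7B and PDE10A are filled on the right at -1.41, -1.46 and -1.61.

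Since PDE1B was called lower and PDE2A was not, the balance of the most abundant pair within each animal is given as a description. The ratio of PDE1B to PDE2A was 1.82 ± 0.135 in HD (range 1.65 to 1.95) and 0.775 ± 0.119 in VHD animals (range 0.676 to 0.948). The ranges did not overlap, and both lay within that of the controls (0.481 to 2.39). Among the 3 lower genes the balance did not separate the categories. The ratio of PDE10A to PDE1B was 0.134 ± 0.0427 in HD and 0.111 ± 0.00930 in VHD (exact permutation p 0.429, n = 4 and 4), and that of PDE7B to PDE1B was 0.141 ± 0.0276 and 0.134 ± 0.0247 (exact permutation p 0.686, n = 4 and 4).

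Striatal projection neuron markers moved with the same categories. Of the 15 markers, 14 were lower in VHD than in HD animals at an adjusted p under 0.05 in limma (8 after rescaling by trimmed means), and 14 did not overlap. Their summed level was 10750 to 12464 TPM in HD and 3938 to 7080 TPM in VHD animals. Microglial markers summed to between 393 and 508 TPM in HD and between 515 and 899 TPM in VHD animals, and 6 of 10 were higher in VHD in limma. Astrocyte markers summed to between 3458 and 5218 TPM in HD and between 6175 and 9280 TPM in VHD animals, with 1 of 10 called. Only 2 of these 10, GFAP and ALDOC, did not overlap. Scores that weight each marker equally (mean centred log2 level) overlapped between HD and VHD animals. They were -0.55 to 0.04 and -0.31 to 0.58 for astrocytes, and -0.49 to -0.07 and -0.12 to 0.64 for microglia. Oligodendrocyte sums overlapped, at 2649 to 4537 TPM and 2583 to 5465 TPM, with 1 of 12 markers called. Sums of endothelial and mural markers also overlapped, at 135 to 149 TPM and 108 to 176 TPM, with 0 of 7 called. When a striatal marker score, the mean of the 15 centred log2 levels, was added as a covariate, the differences fell to -0.14 for PDE1B, -0.69 for PDE7B and -0.39 for PDE10A. None then passed, with adjusted p-values of 0.839, 0.539 and 0.664 in limma, and 0 of 13637 genes were called (1149 at an unadjusted p under 0.05). The score itself did not overlap between HD (0.59 to 0.81) and VHD animals (-0.80 to -0.02), so its part and that of the category cannot be told apart in these 8 animals.

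Over all 24 animals, PDE1B, PDE7B and PDE10A followed 1 another and the striatal markers closely. Pearson's r between log2 levels was 0.97 for PDE1B and PDE7B (Spearman's rho 0.90), 0.96 for PDE1B and PDE10A (rho 0.91) and 0.96 for PDE7B and PDE10A (rho 0.95). Each had a permutation p of 1e-05, the smallest that 100000 permutations can give, and an adjusted p of at most 0.000181 over the 13636 other genes. An r of at least 0.9 was reached by 1.6% of all genes with PDE1B, 2.28% with PDE7B and 1.2% with PDE10A. Within cohorts 5, 7a and 7b the same r values were between 0.97 and 0.99, and without the 2 animals farthest from the median they were between 0.92 and 0.94.

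With the striatal score, r was 0.98 for PDE1B (rho 0.96), 0.97 for PDE7B (rho 0.96) and 0.97 for PDE10A (rho 0.92), each at a permutation p of 1e-05 and an adjusted p of 0.000124. By this r, PDE1B had rank 9 among 13637 genes, PDE7B rank 25 and PDE10A rank 34. Of all genes, 22.3% correlated positively with the score at an adjusted p under 0.05, and 1.71% had an r of at least 0.9. Scores fell into a higher and a lower set of 12 animals each, with none between -0.02 and 0.41. Within the higher set r was 0.80 for PDE1B, 0.91 for PDE7B and 0.76 for PDE10A, and within the lower set without Control replicate 6 it was 0.92, 0.77 and 0.79. The relation was thus seen within each set and without that animal. The sets were divided at a gap seen in these scores, and the share of all genes with such r values within them was not counted.

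**Figure D3:**
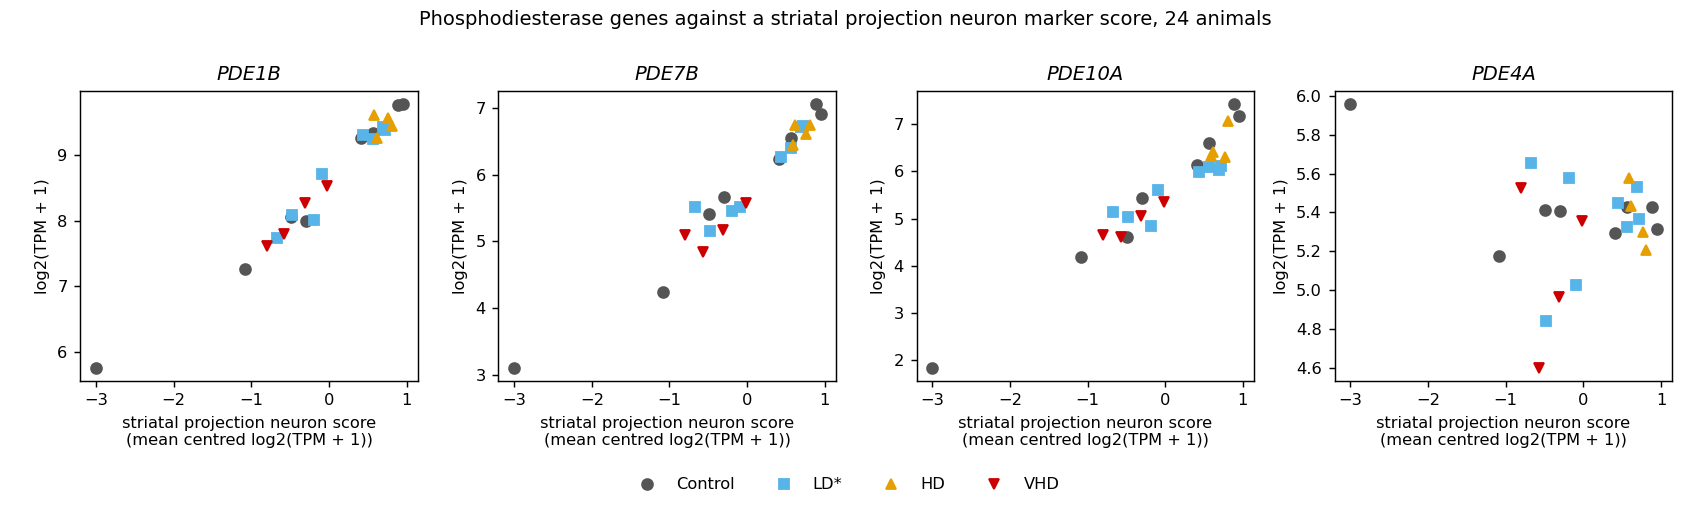
The log2(TPM + 1) of PDE1B, PDE7B, PDE10A and PDE4A is plotted against the striatal projection neuron score (mean centred log2 level of 15 markers) in 24 animals, with symbols for category. The first 3 genes rise along the score (r 0.98, 0.97 and 0.97) with HD animals at the upper end and VHD animals lower down, while PDE4A shows no such line (r -0.18).

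PDE2A followed the striatal score less closely. Its r was 0.84 (rho 0.64, permutation p 2e-05, adjusted p 0.000209), but 0.66 without Control replicate 6 and 0.62 without the 2 farthest animals. Within the higher set of animals it was near 0, and within the lower set without that control 0.74. Its r with PDE1B was 0.77, with PDE10A 0.76 and with PDE7B 0.73, and without Control replicate 6 these were 0.66, 0.50 and 0.55.

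PDE1B, PDE7B and PDE10A ran opposite to glial markers. Their r with the microglial score was -0.79, -0.78 and -0.75 (each permutation p 1e-05, adjusted p 0.000338), and with the astrocyte score -0.74, -0.67 and -0.65 (adjusted p 0.000598, 0.00246 and 0.00391). These stayed below 0 within cohorts 5, 7a and 7b. With the oligodendrocyte score r was -0.45, -0.39 and -0.41, and -0.18, -0.09 and -0.07 without Control replicate 6. No member passed with the endothelial and mural or the cortical excitatory neuron score, where r ran from -0.15 to 0.53 and from -0.15 to 0.36, and where 0 and 0.741% of all genes correlated positively at the adjusted threshold. After rescaling by trimmed means the microglial values were -0.68, -0.75 and -0.68. PDE2A also ran opposite to glial markers. Its r was -0.65 with the astrocyte score, -0.46 with the microglial score and -0.67 with the oligodendrocyte score. The adjusted p-values in the permutation test were 0.000301, 0.0301 and 0.0070. Without Control replicate 6 the r values were -0.78, -0.70 and -0.52, and after rescaling -0.42, -0.14 and -0.56.

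Correlations of another kind were found among the cAMP-specific genes PDE4A, PDE4B, PDE4D and PDE7A. Here r was 0.81 for PDE4B and PDE7A (rho 0.67), 0.77 for PDE4A and PDE4D (rho 0.77), 0.76 for PDE4B and PDE4D (rho 0.51) and 0.73 for PDE4D and PDE7A (rho 0.45). It was lower for PDE4A with PDE4B (0.58) and with PDE7A (0.49), below the 0.63 of PDE4B with PDE7B. Such r values were common for these genes, since 29.8% of all genes had an r of at least 0.7 with PDE4B, 22.9% with PDE4D, 21.5% with PDE7A and 8.02% with PDE4A. After rescaling by trimmed means the first 4 values were 0.54, 0.34, 0.46 and 0.39 and those of PDE4A with PDE4B and PDE7A were 0.0096 and -0.12, so these relations depended on the scaling. None of the 4 passed with the striatal score by Pearson's r (-0.18 for PDE4A, 0.46 for PDE4B, -0.08 for PDE4D and 0.41 for PDE7A). By rank PDE4B (rho 0.61, adjusted p 0.00694) and PDE7A (rho 0.59, adjusted p 0.00799) passed in the permutation test.

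PDE1A and PDE8B formed a pair of their own. Their r was 0.78 (rho 0.79, permutation p 1e-05, adjusted p 0.00244), and PDE8B had rank 49 among 13636 genes by likeness to PDE1A, where 1.39% of genes had an r of at least 0.7. It was 0.93, 0.67 and 0.80 in cohorts 5, 7a and 7b, and 0.70 after rescaling. Neither passed with the striatal score over all animals (r -0.14 and -0.18), and within cohort 5 their r with it was -0.96 and -0.90, against 0.42 and 0.15 in cohort 7a. Cohorts held 7 and 9 animals, and the difference between them was not tested.

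**Figure D4:**
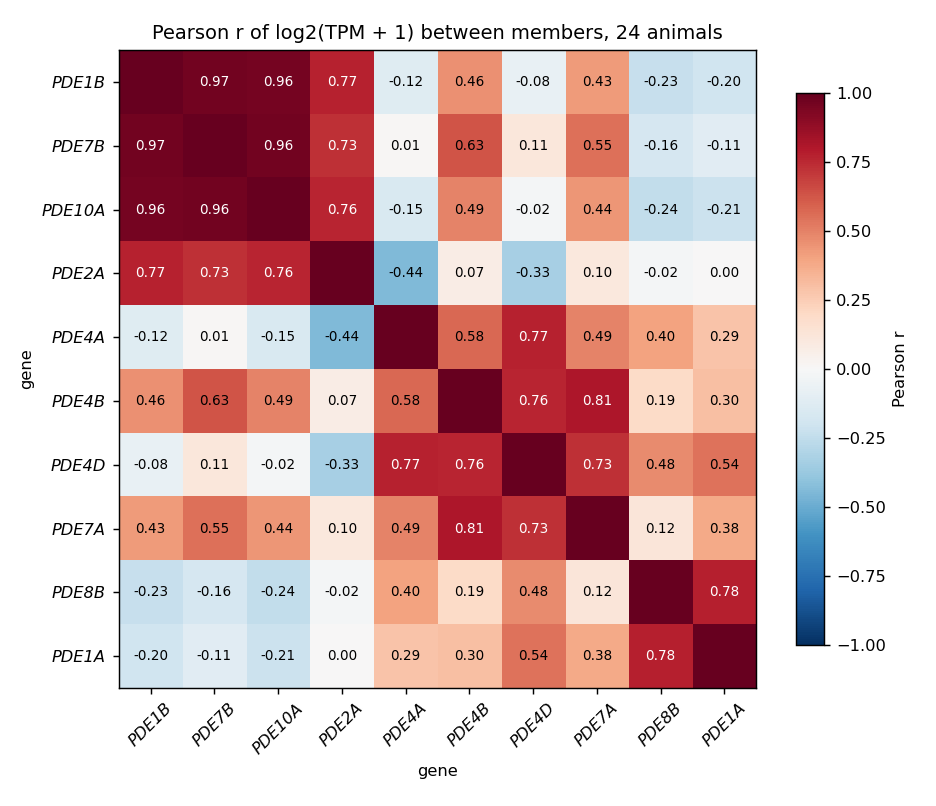
The grid gives Pearson's r of log2(TPM + 1) over 24 animals for each pair of the 10 genes, from -1 in blue to 1 in red. PDE1B, PDE7B and PDE10A form a block at 0.96 to 0.97 with PDE2A beside it at 0.73 to 0.77, and PDE1A pairs with PDE8B at 0.78.

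The genes whose levels over the 24 animals were most like those of each member are given as a description. The part of cell composition and of scaling in these r values was not tested. For PDE10A they were GPR52 (r 0.97), a receptor coupled to cAMP production, ANO3 (0.97) and FKBP1A (0.97). For PDE1B they were ADCY5 (0.99), the main striatal adenylyl cyclase, NGEF (0.98) and CAMK2B (0.98), a subunit of calcium/calmodulin-dependent kinase. For PDE7B they were the potassium channel KCNA4 (0.99), the calcineurin subunit PPP3CA (0.99) and the transcription factor FOXP1 (0.99). PDE2A was nearest to PAK6 (0.97), ICAM5 (0.96) and JPH4 (0.96). PDE1A was nearest to VSNL1 (0.90), ARHGAP6 (0.88) and ARIH2 (0.87), and PDE8B to MYO16 (0.89), PKNOX2 (0.88) and CYP19A1 (0.87). PDE4A was nearest to DVL3 (0.91), PTPRS (0.90) and SEMA6C (0.90), and PDE4B to RALGAPA1, ATG2B and RBM26 (each 0.96). PDE4D was nearest to CEP170, KIF21A and PSMD12 (each 0.95), and PDE7A to FAM214A (0.92), DOPEY1 (0.92) and RNF103 (0.91).

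The rest of the cyclic nucleotide pathway was counted from a list of 72 genes, of which 67 were in the table and 60 were tested. In VHD against HD animals 17 were lower and 2 higher at an adjusted p under 0.05 in limma, a share of 31.7% beside 14.6% of all genes, with a median difference of -0.34 beside -0.17 for all genes. After rescaling by trimmed means 11 were lower and 2 higher, which at 21.7% lay near the 19.1% of all genes called on that scale. The genes named next are those called before rescaling, and those that lost their call with it are not told apart here. Of 15 cyclases tested, 4 were lower, namely the adenylyl cyclases ADCY3 (-0.89), ADCY5 (-0.90) and ADCY9 (-1.03) and the guanylyl cyclase subunit GUCY1A2 (-1.14). Of 11 genes of G proteins and their regulators, 4 were lower, namely GNAO1 (-0.89), GNB5 (-0.71), RGS9 (-0.98), which speeds the turn-off of striatal G proteins, and RIC8B (-0.83).

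Among 21 kinases and effectors, 5 were lower and 2 higher. The catalytic and regulatory subunits of protein kinase A PRKACA (-0.68) and PRKAR1B (-0.59), the kinase inhibitor PKIA (-0.55) and the exchange factor RAPGEF2 (-0.69) were among the lower genes. The inhibitor PKIG (0.43) and the cAMP-activated exchange factor RAPGEF4 (0.63) were higher. Among 13 anchors and substrates, AKAP9 (-1.03), PPP1R1B (-1.03), the dopamine- and cAMP-regulated phosphatase inhibitor, ARPP19 (-0.74) and ARPP21 (-0.74) were lower. ADCY5, RGS9 and PPP1R1B also belong to the striatal marker list. Of the 11 other phosphodiesterase genes tested 0 passed in this comparison, where 14.6% of all genes did, with 6 above and 5 below 0 and a median of 0.01. In the comparisons of HD* with controls, of LD* with controls and of HD* with LD*, 0 of the 60 pathway genes passed in limma. At an unadjusted p under 0.05, 3, 2 and 0 of them were lower and 0 higher. At that level 5.68%, 2.84% and 1.08% of all genes were found in either direction. Of the 11 other phosphodiesterases 0 passed in those comparisons, with 1, 0 and 0 higher at an unadjusted p under 0.05.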

How the data were processed

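RNA-Seq of the NAcc core was available for 24 animals, 1 sample each. The authors prepared polyA-selected libraries, aligned reads to the MacaM assembly with STAR 2.5.2b, keeping uniquely placed reads, and counted them on genes with HTSeq 0.6.1p1. The deposited table is named for normalized counts, but each column adds up to between 999998 and 1000000, so the deposited values are TPM, made by the authors with gene lengths not given in the sources used here. Read depth cannot be recovered from TPM, and no counting interval is given. The paper describes strand-oriented, paired-end libraries, while 1 field of the public record describes single-end libraries without strand. Reads from antisense or overlapping genes may therefore be mixed. All 24 columns were matched to animals by name, and categories, cohorts and intake were taken from the labels.

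Values were transformed to log2(TPM + 1), and 13637 genes, those averaging 1 TPM or more over the animals, entered limma 3.58.1 under R 4.3.3 (empirical Bayes with a trend), with Benjamini-Hochberg adjustment over all genes tested and a threshold of 0.05. HD*, LD* and controls shared 1 model, VHD and HD were compared among the 8 HD* animals, and the intake slope was fitted among the 16 drinkers with a term for LD* and HD*. Correlations and exact permutation tests were two-sided and run in Python 3.11.15 with scipy 1.17.1, with 100000 permutations for correlations and adjustment over all genes set against the same measure. Marker scores were the mean centred log2(TPM + 1) of each list (striatal projection neuron, oligodendrocyte, astrocyte, microglia, endothelial and mural, cortical excitatory neuron). The scripts were tested on simulated data. Each animal is 1 sample, and no pair of columns was identical.

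By rule, every member was named with its values, every other phosphodiesterase in the table with its level, pathway genes where they passed in a comparison (1 of them is not reported here), and for each member the 3 genes with the highest r. The members and lists were chosen with earlier results of these data known, so no list is independent support. Alternatives were pseudocounts of 0.1 and 8, a filter of 10 TPM or none, rescaling by trimmed means of M-values, cohort or the striatal score as a covariate, only the compared groups, cohorts 5 and 7a alone, and each animal left out. Correlations without Control replicate 6, those within the higher and lower sets of striatal scores, and rescaling of the counts without overlap, were added after seeing the data. RefSeq symbols of the T2T-MMU8v2.0 assembly matched all 10 members, but that build is not MacaM, so no coordinates are given.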

Additional observations from a re-analysis of the deposited data

Results flagged for a closer look

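In 3 of 50 groups of members' values tested, 1 animal lay apart from the others of its group by Dixon's criterion, where chance alone flags about 1 in 20. PDE2A was at 95.5 TPM in Control replicate 6 against 317 to 385 TPM in the other 7 controls. PDE4A was at 61.1 TPM in the same animal against 35.2 to 42.1 TPM in the other controls, so it was high where PDE2A was low. That library also had the lowest striatal marker levels of the 24 animals, and the part of this in either value was not tested. PDE10A was at 133.8 TPM in HD replicate 1 against 78.2 to 84.1 TPM in the other 3 HD animals, and the call of PDE10A between VHD and HD held without this animal.

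For PDE1A and PDE8B the difference of VHD from HD went opposite ways in cohorts 5 and 7a, with no overlap in either cohort (2 HD and 2 VHD animals in each). For PDE1A in cohort 7a the difference came mainly from VHD replicate 4 (1.67 TPM). VHD replicate 3 was at 20.5 TPM, beside 22.8 and 21.5 TPM in the HD animals. After rescaling by trimmed means VHD replicate 3 was at 24.6, above both HD animals (22.7 and 21.1), so PDE1A then overlapped in that cohort. PDE1B, PDE4B, PDE7A, PDE7B and PDE10A also did not overlap in either cohort, each lower in VHD animals. Of these, PDE7A overlapped in cohort 5 after rescaling by trimmed means. The share of all genes without overlap at 2 against 2 animals was not counted. Lack of overlap alone therefore sets no gene apart here. PDE1A was 1.59 log2 units higher in VHD in cohort 5 and changed by -1.61 in cohort 7a, a difference between cohorts of -3.20 (SE 1.15). PDE8B was 0.72 higher in cohort 5 and changed by -0.77 in cohort 7a, a difference of -1.49 (SE 0.37). A limma interaction test, added after these values were seen, gave unadjusted p-values of 0.0227 and 0.00376 and adjusted p-values of 0.248 and 0.247, so neither passed over the 13637 genes. PDE4A, which overlapped in cohort 5, had a like unadjusted p of 0.0204 (adjusted p 0.247 in limma), at 0.12 in cohort 5 and -0.66 in cohort 7a. Of all genes, 17.9% had an unadjusted p under 0.05 in that test and 0 passed adjustment.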

How the results depend on the processing

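Depth is unknown, groups of 4 limit the VHD and HD comparison, and cohort and category were not crossed in full. The calls of PDE1B, PDE7B and PDE10A between VHD and HD held under both pseudocounts, both filters, rescaling, the cohort covariate and every animal left out, and were lost with the striatal score as a covariate (-0.14, -0.69 and -0.39), where the count of genes called fell from 1997 to 0. Leaving out 1 animal moved that count to between 476 (without VHD replicate 3) and 4651 (without VHD replicate 2), and to 1094, 681, 607 and 723 without HD replicates 1 to 4. The count for the cohort dependence of HD* went from 0 to 14 without Control replicate 7 and to 1 without Control replicate 2, and that for intake from 0 to 1 without LD replicate 2. The number of member pairs with an r of at least 0.7 fell from 11 to 5 after rescaling and to 5 without the 2 farthest animals, and was 9 without Control replicate 6. The cause was not tested in any of these.

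The other changes were of sign in values that did not pass. Rescaling turned HD* against controls for PDE8B (0.066), HD* against LD* for PDE2A (0.061) and PDE7B (0.022), VHD against HD for PDE1A (0.14), PDE2A (0.029) and PDE8B (0.17), the intake slope for PDE1A (0.0018), PDE2A (0.12) and PDE7A (0.013), and the cohort dependence for PDE4B (0.044) and PDE7A (0.049). A pseudocount of 8 turned VHD against HD for PDE1A (0.13) and the cohort dependence for PDE7A (0.0047). Cohort as a covariate turned HD* against controls for PDE1B (-0.0053), PDE7B (-0.068) and PDE10A (-0.19), HD* against LD* for PDE1B (-0.57), PDE7A (-0.073) and PDE10A (-0.86), and the slope for PDE2A (0.019). Cohorts 5 and 7a alone turned HD* against controls for PDE1A (0.062), PDE1B (-0.039), PDE7B (-0.12) and PDE10A (-0.37). The striatal score turned HD* against controls for PDE1B (-0.075), PDE7B (-0.16) and PDE10A (-0.22), LD* against controls for PDE1B (-0.088), PDE4B (-0.028), PDE7B (-0.088) and PDE10A (-0.33), VHD against HD for PDE2A (0.60), and the slope for PDE1B (0.23), PDE2A (0.094), PDE7B (0.0045) and PDE10A (0.17).

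With 1 animal left out, HD* against controls ranged from -0.21 to 0.58 for PDE10A, -0.31 to 0.24 for PDE1A, -0.018 to 0.56 for PDE1B, -0.11 to 0.45 for PDE7B and -0.16 to 0.042 for PDE8B. LD* against controls ranged from -0.33 to 0.46 for PDE10A, -0.041 to 0.53 for PDE1B, -0.054 to 0.10 for PDE4B and -0.043 to 0.52 for PDE7B. HD* against LD* ranged from -0.075 to 0.28 for PDE10A, -0.12 to 0.19 for PDE1B, -0.070 to 0.039 for PDE2A, -0.029 to 0.11 for PDE7A and -0.19 to 0.086 for PDE7B. VHD against HD ranged from -0.47 to 0.82 for PDE1A and -0.26 to 0.22 for PDE8B. The slope ranged from -0.35 to 0.83 for PDE1A, -0.092 to 0.024 for PDE2A and -0.36 to 0.45 for PDE8B. The cohort dependence ranged from -0.22 to 2.20 for PDE10A, -0.063 to 2.01 for PDE1B, -0.52 to 0.42 for PDE4B, -0.49 to 0.017 for PDE4D, -0.25 to 0.22 for PDE7A and -0.28 to 2.03 for PDE7B, where the lone cohort 7a control that remains without Control replicate 7 or 8 is assumed to vary like the other groups. In the other 35 of 60 values the sign did not turn when 1 animal was left out. No paired analysis was possible because the animals were unrelated, and each was measured once in 1 category. The labels give no replicate numbers, and those used here only name animals.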
